A study of Mus musculus with 11 samples.

Results

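The 40 genes described here encode proteins that copy DNA in S phase or supply it with deoxynucleotides. They were chosen by name and function, and all 40 were present among the 17475 genes measured. Their messenger RNA was measured by sequencing in macrophages of mammary tumours, in 11 libraries from 6 female mice on a background backcrossed to B6. The study asked how tumour-associated macrophages of the parenchyma (TAMs) differ from mammary tissue macrophages of the stroma (MTMs), in MYC-PyMT and in control-PyMT mice. The sort took CD45 and F4/80 positive cells without SiglecF, Ly6G, B220 or Ly6C, with TAMs gated as Vcam positive and MTMs as Vcam negative and FOLR2 positive.

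The groups were MYC TAMs (mice 2, 4 and 6), MYC MTMs (mice 2 and 4), control TAMs (mice 1, 3 and 5) and control MTMs (mice 1, 3 and 5). All mice carried PyMT, the polyoma middle T oncogene, under which mammary tumours form. MYC mice also carried S100a8-cre and Rosa26-LSL-MYC, that is, a MYC transgene that is switched on where Cre, driven by the promoter of a gene of myeloid cells, has been active. Every mouse had been lethally irradiated at 7 weeks of age and given bone marrow of WT B6 donors, so macrophages of donor origin lack the Cre and the MYC transgene. Every mouse also received a low protein diet from 2 weeks later, for 6 weeks, so diet was not a variable. How many of the sorted cells came from the host is not given in the sources used here.

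Replication begins where the origin recognition complex, with Cdc6 and Cdt1, loads the Mcm2 to Mcm7 ring onto DNA. Cdc45, the GINS complex and Mcm10 turn that ring into an active helicase, and the DNA polymerases then follow, held to DNA by the PCNA clamp that replication factor C loads. Ribonucleotide reductase, thymidylate synthase and thymidine kinase feed the forks with deoxynucleotides, and many of these genes are known targets of E2F transcription factors at the G1/S boundary. Macrophages in tissues are mostly out of the cell cycle, but part of a tumour's macrophages can divide locally.

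A level is used below for the deposited log2 value of a gene in a library. The values behaved as the log2 of reads per length and depth with 1 added, so levels can be compared between genes, and differences of low genes are understated. Estimated depth was 32900000 to 43600000 reads in genes per library. Estimated reads per library for the 40 genes ran from 6.98 for Cdc6 to 64300 for Rfc2, both in the library of MYC TAM mouse 2.

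The libraries carried marks that bear on every comparison below. Folr2 encodes the receptor by which MTMs were sorted. Its level was 1.07, 1.44 and 3.62 in the MYC TAM libraries, 8.45 and 8.07 in the MYC MTM libraries, 0.96, 1.37 and 1.77 in control TAMs and 7.67 to 8.05 in control MTMs. Vcam1, which encodes the TAM gate's protein, had levels of 0.96, 1.61 and 2.82 in MYC TAMs, against 8.60, 7.64 and 8.57 in control TAMs. The transcript thus went against the gate in all 3 libraries labelled MYC TAM, which were below even the control MTMs at 5.25 to 6.86 and overlapped the MYC MTMs at 2.32 and 2.31. Emr1, the F4/80 gene, was present throughout, at 7.50 to 8.37 in MYC TAMs and 9.40 to 9.96 in the other groups. Mouse Myc was at 2.16, 1.92 and 1.78 in MYC TAMs, against 2.66, 3.18 and 3.11 in control TAMs; whether transcripts of the transgene are counted under Myc is not given in the sources used here.

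RNA of other cells also differed between the groups. Averaged over 18 epithelial markers, the level was 3.55, 2.49 and 1.58 in MYC TAMs, 3.64 and 3.52 in MYC MTMs, 4.37, 5.04 and 4.19 in control TAMs and 3.85 to 4.49 in control MTMs. That of 16 markers of T and NK cells was 0.20, 0.46 and 0.28 in MYC TAMs, 0.32 and 0.96 in MYC MTMs, 2.75, 1.82 and 1.99 in control TAMs and 1.23 to 1.63 in control MTMs. Cd3e was at its lowest shared value in all 3 MYC TAM libraries and in MYC MTM mouse 2. The average of 10 dendritic cell markers was 0.12, 0.38 and 0.21 in MYC TAMs, 0.71 and 1.01 in MYC MTMs, 0.96, 1.14 and 0.99 in control TAMs and 1.30 to 1.44 in control MTMs. For 8 monocyte markers it was 1.66, 1.73 and 1.56 in MYC TAMs, 2.81 and 2.57 in MYC MTMs, 1.02, 1.01 and 0.86 in control TAMs and 2.47 to 3.01 in control MTMs. The dendritic cell average was thus lowest in MYC TAMs, and the monocyte average lay between control TAMs and both MTM groups. The monocyte markers did not move together, for 4 of the 8 were higher in MYC TAMs than in control TAMs and 4 lower. Their median difference was -0.09, and the differences ran from -1.46 to 7.62. Csf1r, the receptor on which macrophages depend, was at 7.59, 8.03 and 8.09 in MYC TAMs and 9.91 to 10.7 in the other groups. It is 1 of 12 macrophage identity markers, which did not all fall. Against control TAMs 5 of the 12 were higher in MYC TAMs and 7 lower, with differences up to 1.95 and a median of -0.37. Against MYC MTMs 2 were higher and 10 lower, with a median of -0.85. The library of MYC TAM mouse 4 had 517 genes at their lowest shared value, against 2000 to 3219 in the others. The part of these differences in the results was not tested, and fewer cells of a kind cannot be told apart from less RNA per cell.

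In MYC mice, 10 of the 40 genes differed between TAMs and MTMs, 9 of them lower in TAMs and 1 higher (limma, adjusted p below 0.05 over all genes). Among all genes 4.49% passed in this comparison, 3.82% lower and 0.664% higher. The 9 lower genes were Mcm2, Mcm3, Mcm5, Mcm6 and Mcm7 of the helicase, Cdc6 and Orc1 of its loading machinery, and Rrm1 and Rrm2, the large and small subunits of ribonucleotide reductase. The 1 higher gene was Rfc2, a subunit of the clamp loader. The median difference of the 40 genes was -0.60, beside -0.01 over all genes, and the libraries did not overlap for 23 genes that were lower in TAMs and 2 that were higher. Over all genes 23.5% were lower without overlap and 6.82% higher. All genes include many with low levels. In a fit of the 9375 genes with a mean level of 1 or more, 10.1% passed and their median difference was -0.20. There 12 of the 39 members that were kept passed, with a median of -0.60. The count of 10 rests on few libraries, for without MYC MTM mouse 2 or without MYC MTM mouse 4 it was 1, which was Rrm2. It was 6 without MYC TAM mouse 2 and also 6 without MYC TAM mice 4 and 6 together, of which 5 were among the 10.

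In control mice the same comparison passed for 0 of the 40 genes, where 2.37% of all genes passed, 0.744% higher and 1.63% lower. Libraries did not overlap for 2 genes that were higher in TAMs (6.90% of all genes) and 1 that was lower (12.0%). At an unadjusted limma p under 0.05 there were 3, Pola1 at -0.65 and Prim1 and Rfc2 at 0.91 and 0.59. Of all 17475 genes 2061 were under it, which is a larger share. The median difference of the 40 was -0.03.

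MYC TAMs also differed from control TAMs, at 18 of the 40 genes, where 15.9% of all genes passed. There were 17 lower in MYC TAMs (12.0% of all genes) and 1 higher, Cdt1 (3.89% of all genes). The median difference of the 40 was -0.69, against -0.02 over all genes. Without overlap, 25 genes were lower, where 22.1% of all genes were, and 2 were higher, where 8.03% were. Among genes with a mean level of 1 or more, 28.3% passed and their median difference was -0.21. There 22 of the 39 members that were kept passed, with a median of -0.70. After quantile normalisation, which forces all libraries to 1 distribution, there were 10 lower and 2 higher genes, where 15.2% of all genes passed. Centring libraries on their medians gave 13 lower and 2 higher, where 43.7% of all genes passed. After centring, the 40 genes were thus not called more often than all genes. Between MYC MTMs and control MTMs 0 of the 40 passed, where 0.618% of all genes passed, and 10 were lower and 1 higher without overlap (20.1% and 11.1% of all genes). At an unadjusted limma p under 0.05 there were 3, namely Cdt1 at 1.05, Gins2 at -0.75 and Tk1 at -0.74. Of all 17475 genes 1760 were under it, again a larger share. The comparisons of MYC TAMs with MYC MTMs and with control TAMs share the 3 MYC TAM libraries, so they are not independent of each other. Of the 18 calls, 8 held under all 19 alternatives, namely Mcm2, Mcm3, Mcm5, Mcm6, Mcm7, Cdc6, Rrm1 and Rrm2.

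**Figure D1:**
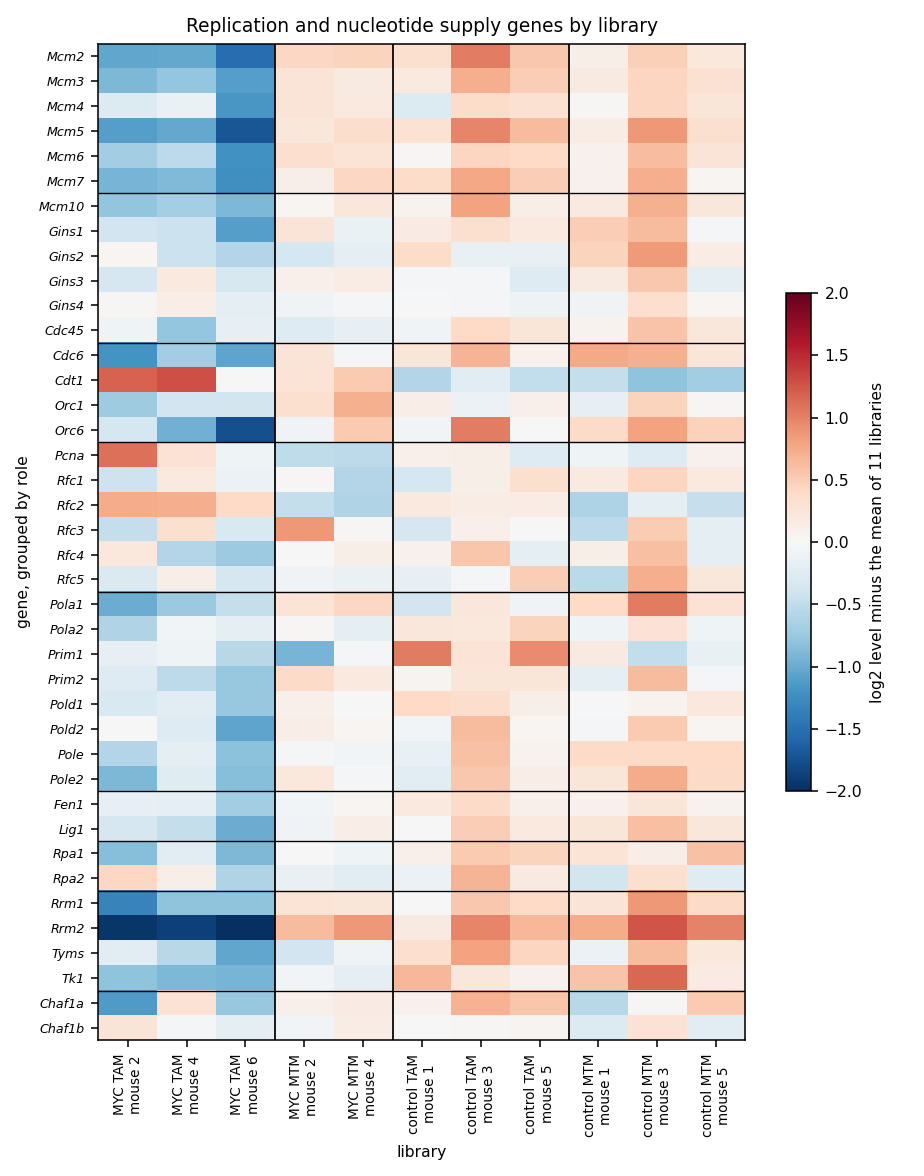
Level of each of the 40 genes (rows, grouped by role) in each library (columns) minus that gene's mean over the 11 libraries, on the log2 scale. The MYC TAM columns are the lowest in the helicase rows Mcm2, Mcm3, Mcm5, Mcm6 and Mcm7 and in Rrm1 and Rrm2, while Rfc2 and Pcna are not.

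The promoters of the genes were read to show what the members share in sequence. Windows of 300 bases, 250 before to 50 after the RefSeq start on GRCm38.p6, were at hand for 33 of the 40 genes. The letters searched for E2F were TTTCCCGC, TTTCGCGC, TTTGCCGC and TTTGGCGC on either strand, and 13 of the 33 held a match (39.4%), against 2.26% of all 32851 windows and 3.96% of the 12165 measured genes with a window. The CCAAT box was in 21 (63.6%, against 37.4% of windows and 42.3% of measured genes), the E-box CACGTG in 7 (21.2%, against 7.15% and 10.7%) and the letters TTTGAA of the cell cycle homology region in 5 (15.2%, against 17.9% and 15.4%). Matches are a description of letters and not of binding.

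Shown here are the windows of the called genes with the smallest p against control TAMs for the helicase, licensing and nucleotide supply, and that of the member with the largest p. They run 5′ to 3′ on the gene's strand, with matches to the E2F letters or the CCAAT box of either strand in capitals.
Mcm3 (chr1:20820263-20820562, minus strand): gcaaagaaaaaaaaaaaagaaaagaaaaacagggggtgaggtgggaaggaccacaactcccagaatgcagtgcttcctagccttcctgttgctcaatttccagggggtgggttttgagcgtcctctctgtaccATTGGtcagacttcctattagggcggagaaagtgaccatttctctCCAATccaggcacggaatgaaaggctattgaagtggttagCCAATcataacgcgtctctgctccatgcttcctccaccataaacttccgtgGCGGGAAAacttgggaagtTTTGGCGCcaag
Cdc6 (chr11:98907901-98908200, plus strand): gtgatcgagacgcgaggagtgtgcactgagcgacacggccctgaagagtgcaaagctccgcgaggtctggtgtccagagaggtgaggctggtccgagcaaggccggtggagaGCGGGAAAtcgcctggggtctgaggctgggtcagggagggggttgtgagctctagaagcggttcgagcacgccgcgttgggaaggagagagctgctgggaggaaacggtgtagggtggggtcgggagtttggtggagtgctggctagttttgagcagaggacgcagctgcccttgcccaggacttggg
Rrm2 (chr12:24708004-24708303, plus strand): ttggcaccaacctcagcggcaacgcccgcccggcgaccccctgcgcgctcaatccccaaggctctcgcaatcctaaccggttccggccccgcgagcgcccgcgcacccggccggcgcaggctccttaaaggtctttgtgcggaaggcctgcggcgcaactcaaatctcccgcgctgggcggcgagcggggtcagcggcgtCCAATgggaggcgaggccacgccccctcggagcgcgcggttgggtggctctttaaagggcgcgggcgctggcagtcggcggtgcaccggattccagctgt
Chaf1b (chr16:93883651-93883950, plus strand): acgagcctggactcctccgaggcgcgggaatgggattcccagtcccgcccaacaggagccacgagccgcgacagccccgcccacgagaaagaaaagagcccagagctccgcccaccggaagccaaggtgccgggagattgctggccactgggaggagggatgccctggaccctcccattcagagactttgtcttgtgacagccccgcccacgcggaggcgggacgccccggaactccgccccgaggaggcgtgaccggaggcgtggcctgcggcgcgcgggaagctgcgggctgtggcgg

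Mcm3 held 2 E2F matches, both after the start, and 3 CCAAT boxes before it. Cdc6 held 1 E2F match 138 bases before the RefSeq start, Rrm2 held none and 1 CCAAT box, and Chaf1b held neither. In GENCODE M21 the Cdc6 gene starts at 98907801, before its window, so bases upstream of that start were not searched. Between MYC TAMs and MYC MTMs, 6 of the 13 genes with an E2F match were called lower, and 3 of the 20 without one, with median differences of -1.01 and -0.41. Against control TAMs these counts were 7 of 13 and 9 of 20, with medians of -0.81 in both. Cdt1, the gene that was higher, also held an E2F match, and Rrm2, the gene that fell most, did not.

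The replicative helicase, which unwinds the double strand, had a median difference of -1.21 from MYC MTMs and of -1.47 from control TAMs, and 5 of its 6 subunits passed in both. The 6 subunits averaged a level of 4.16, 4.26 and 3.66 in MYC TAMs, with 5.25 and 5.29 in MYC MTMs. In controls that average was 5.14, 5.69 and 5.46 in TAMs and 5.09, 5.57 and 5.21 in MTMs. The 3 MYC TAM libraries were below all 8 others.

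Mcm2 was at 3.42, 3.43 and 2.93 in MYC TAMs, 4.86 and 4.89 in MYC MTMs, 4.78, 5.47 and 4.99 in control TAMs and 4.57, 4.93 and 4.66 in control MTMs. The MYC TAM libraries were separate from every other library and the other 3 groups overlapped. The difference of MYC TAMs from MYC MTMs was -1.62 ± 0.23 (SE, adjusted p = 0.00571), and that from control TAMs was -1.82 ± 0.21 (adjusted p = 0.000483). Over the alternatives the adjusted p ran from 0.00253 to 0.0702 in the first and from 0.000195 to 0.0138 in the second.

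Mcm3, another subunit of the ring, had levels of 4.85, 4.98 and 4.65 in MYC TAMs, 6.00 and 5.93 in MYC MTMs, 5.94, 6.47 and 6.25 in control TAMs and 5.94, 6.18 and 6.05 in control MTMs. Again the MYC TAM libraries stood below all others. It fell by 1.14 against MYC MTMs (SE 0.18, adjusted p = 0.00710) and by 1.39 against control TAMs (SE 0.16, adjusted p = 0.000465).

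Mcm5, which completes the gate through which the ring opens onto DNA together with Mcm2, was at 3.80, 3.88 and 3.19 in MYC TAMs, with 5.13 and 5.25 in MYC MTMs, beside 5.19, 5.87 and 5.53 in control TAMs and 5.05, 5.77 and 5.22 in control MTMs. The lowest library of the other groups was above the highest MYC TAM library. Its differences were -1.57 ± 0.29 from MYC MTMs (adjusted p = 0.0161) and -1.91 ± 0.26 from control TAMs (adjusted p = 0.00117).

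Mcm6 and Mcm7 went the same way. Mcm6 was lower in MYC TAMs by 1.11 than in MYC MTMs and by 1.09 than in control TAMs, and Mcm7 by 1.28 and by 1.56. Mcm4, the sixth subunit, did not pass. It was at 4.46, 4.61 and 3.57 in MYC TAMs, 4.99 and 4.94 in MYC MTMs, 4.46, 5.10 and 5.04 in control TAMs and 4.76, 5.17 and 4.98 in control MTMs. The lowest value belonged to MYC TAM mouse 6, and the TAMs of both genotypes overlapped. The difference from MYC MTMs was -0.75 (95% interval -1.45 to -0.05, adjusted p = 0.255).

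Within a mouse, the TAM and MTM libraries can be set against each other directly. Mcm2 was lower in TAMs by 1.45 and 1.46 in MYC mice 2 and 4, whereas the TAM minus MTM difference was 0.20, 0.54 and 0.33 in control mice 1, 3 and 5. For Mcm5 the differences were -1.33 and -1.37 in the MYC mice and 0.14, 0.10 and 0.31 in the control mice. In both MYC mice 23 of the 40 genes were lower in TAMs (34.4% of all genes) and 5 were higher (19.8%). In all 3 control mice 7 were lower (19.9%) and 10 higher (13.7%).

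**Figure D2:**
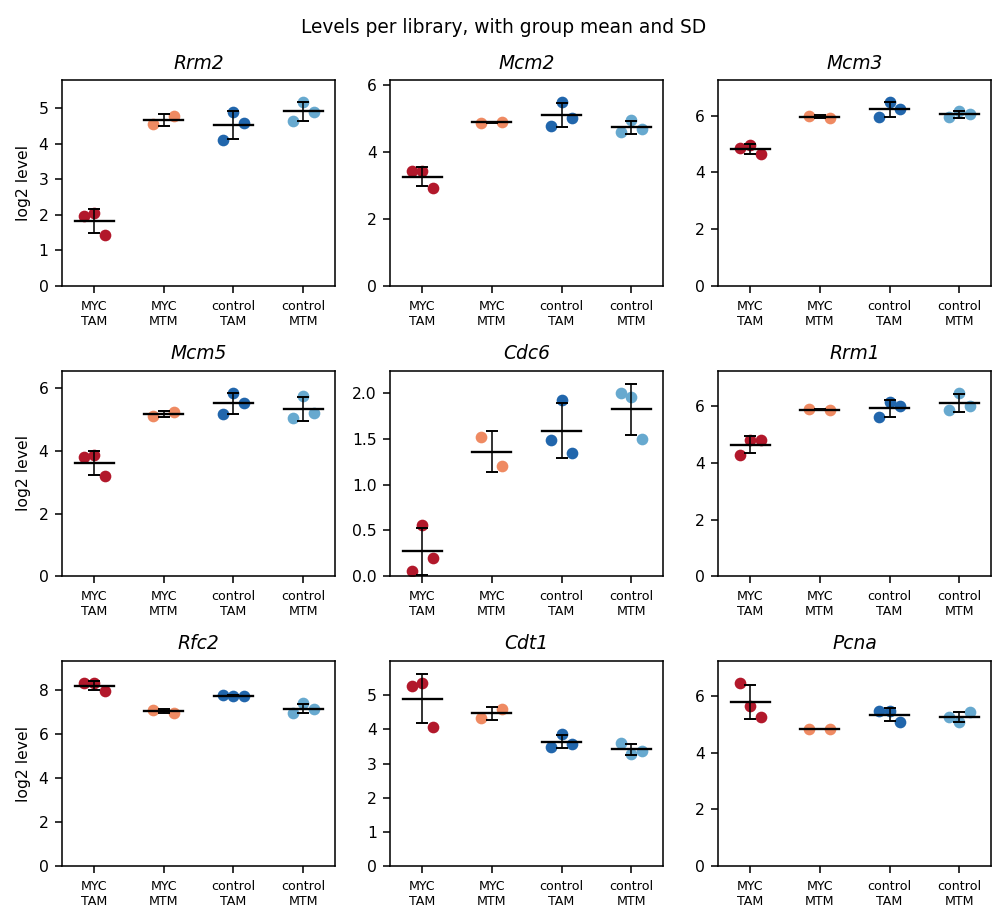
Level of 9 genes in each library (points), with the group mean (line) and SD (error bar); axes start at 0 on the log2 scale. Rrm2, Mcm2, Mcm3, Mcm5, Cdc6 and Rrm1 are lowest in all 3 MYC TAM libraries, Rfc2 is highest there, Cdt1 is above both control groups in both MYC groups, and Pcna spreads from 5.26 to 6.45 in MYC TAMs.

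Of the 6 genes that activate the helicase, 0 differed between MYC TAMs and MYC MTMs, and 5 had an estimate below 0. At an unadjusted limma p under 0.05 were Mcm10 and Gins1, where 2928 of all 17475 genes were. Mcm10, which helps the helicase to start unwinding, was at 0.59, 0.71 and 0.48 in MYC TAMs, 1.43 and 1.61 in MYC MTMs, 1.45, 2.18 and 1.51 in control TAMs and 1.56, 2.09 and 1.62 in control MTMs. Its MYC TAM libraries were separate from the other 8. The difference from MYC MTMs was -0.92 ± 0.27 (adjusted p = 0.0952), and that from control TAMs, -1.12 ± 0.24, passed (adjusted p = 0.0118), although not with MYC TAM mice 4 and 6 left out together (adjusted p = 0.0983).

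Gins1 fell by 0.86 in MYC TAMs against control TAMs (SE 0.25, adjusted p = 0.0433), a call that 12 of 19 alternatives did not keep. The other GINS subunits and Cdc45 did not pass. Gins2 was at 1.61, 1.15 and 0.99 in MYC TAMs, 1.22 and 1.41 in MYC MTMs, 1.94, 1.42 and 1.43 in control TAMs and 2.02, 2.43 and 1.73 in control MTMs, with overlap between MYC TAMs and MYC MTMs (difference -0.06, 95% interval -0.70 to 0.58). Gins4 differed by 0.05 between MYC TAMs and MYC MTMs (95% interval -0.31 to 0.40), Gins3 by -0.28 (-0.82 to 0.26) and Cdc45 by -0.13 (-0.69 to 0.42). Exons of Gins2 share 67.3% of their bases with Gse1 on the opposite strand, so its reads are uncertain if counting ignored strand, which is not stated.

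The origin licensing genes did not move as a block. Orc1, the largest subunit of the origin recognition complex, was at 0.40, 0.73 and 0.75 in MYC TAMs, 1.43 and 1.83 in MYC MTMs, 1.24, 1.00 and 1.22 in control TAMs and 0.95, 1.55 and 1.14 in control MTMs. Both MYC MTM libraries were above all MYC TAM libraries. It fell by 1.01 in MYC TAMs against MYC MTMs (SE 0.23, adjusted p = 0.0388). Against control TAMs its difference of -0.53 did not pass (adjusted p = 0.117), and 12 of 20 alternatives took away the call against MYC MTMs.

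Cdc6, the ATPase that joins the origin complex to load the helicase, was at 0.06, 0.56 and 0.20 in MYC TAMs, 1.51 and 1.21 in MYC MTMs, 1.49, 1.92 and 1.34 in control TAMs and 2.00, 1.96 and 1.50 in control MTMs. The MYC TAM libraries held an estimated 6.98, 60.8 and 24.9 reads of it, and the other libraries 206 to 463. Its level fell by 1.09 against MYC MTMs (SE 0.26, adjusted p = 0.0467) and by 1.31 against control TAMs (SE 0.23, adjusted p = 0.00479). The second call held under all 19 alternatives, whereas 13 of 20 took the first above the threshold.

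Cdt1, the other helicase loader, went the opposite way. It was at 5.25, 5.35 and 4.06 in MYC TAMs, with 4.33 and 4.59 in MYC MTMs, against 3.48, 3.86 and 3.57 in control TAMs and 3.60, 3.26 and 3.37 in control MTMs. All 5 MYC libraries were above all 6 control libraries. The difference of MYC TAMs from control TAMs was 1.25 ± 0.31 (adjusted p = 0.0228), and that of MYC MTMs from control MTMs, 1.05 ± 0.34, did not pass (adjusted p = 0.292). The difference between these differences was 0.20 (95% interval -0.84 to 1.23, adjusted p = 0.881). The first call was lost when MYC TAM mouse 2 or 4, or control TAM mouse 1 or 5, was left out, and in a fit of these groups alone, and its adjusted p over all alternatives ran from 0.000556 to 0.0976.

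Orc6 was at 3.35, 2.74 and 1.94 in MYC TAMs, beside 3.64, 4.73 and 3.70 in control TAMs, with no overlap, and it fell by 1.35 (SE 0.39, adjusted p = 0.0458). This was the least stable of the 18 calls, with 14 of 19 alternatives above the threshold. Against MYC MTMs, at 3.63 and 4.23, the difference was -1.25 (adjusted p = 0.171). Exons of Orc6 share 171 bases, 6.93% of their length, with Vps35 on the opposite strand. Vps35 was at 7.31 to 8.24 in the libraries, and its part in the Orc6 values was not tested.

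The sliding clamp and its loader had a median difference of 0.05 between MYC TAMs and MYC MTMs, and 1 of the 6 genes passed. Their 6 genes averaged a level of 4.72, 4.75 and 4.38 in MYC TAMs, 4.55 and 4.29 in MYC MTMs, 4.49, 4.74 and 4.66 in control TAMs and 4.33, 4.88 and 4.52 in control MTMs. All 4 groups overlapped in this average.

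Rfc2 was at 8.34, 8.32 and 7.99 in MYC TAMs, 7.12 and 6.99 in MYC MTMs, 7.79, 7.75 and 7.74 in control TAMs and 6.97, 7.41 and 7.13 in control MTMs. TAMs were above MTMs in both genotypes, without overlap. The rise in MYC TAMs against MYC MTMs was 1.16 ± 0.17 (adjusted p = 0.00605, and 0.0925 at most over the alternatives), and the difference in control mice was 0.59 ± 0.15 (adjusted p = 0.0984). These differences themselves differed by 0.57 (95% interval 0.06 to 1.09, adjusted p = 0.384). Rfc2 held the highest level of the 40 genes, and the other 4 loader subunits were at 2.26 to 5.13. Its exons share 952 bases, 15.1% of their length, with Lat2 on the opposite strand, and Lat2 was at 6.64, 6.80 and 7.00 in MYC TAMs, 7.11 and 7.01 in MYC MTMs, 7.76, 7.53 and 7.44 in control TAMs and 7.06, 7.41 and 7.09 in control MTMs. Lat2 thus ran against Rfc2 in MYC mice and the same way as Rfc2 in control mice, without overlap in either.

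Pcna, the clamp itself, was at 6.45, 5.64 and 5.26 in MYC TAMs, 4.84 and 4.82 in MYC MTMs, 5.45, 5.47 and 5.09 in control TAMs and 5.27, 5.08 and 5.44 in control MTMs. MYC TAMs were above MYC MTMs. MYC TAM mice 2 and 4 were also above every control library, and MYC TAM mouse 6 lay among the controls. The difference from MYC MTMs was 0.95 ± 0.30 (adjusted p = 0.127). Pcna has the processed pseudogenes Pcna-ps1 and Pcna-ps2, so reads could be split between copies. Rfc5 was at 3.65, 4.06 and 3.60 in MYC TAMs, 3.87 and 3.81 in MYC MTMs, 3.77, 3.91 and 4.43 in control TAMs and 3.40, 4.67 and 4.17 in control MTMs, with overlap throughout (difference between MYC TAMs and MYC MTMs -0.07, 95% interval -0.84 to 0.70). Rfc1, Rfc3 and Rfc4 did not pass in any comparison.

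**Figure D3:**
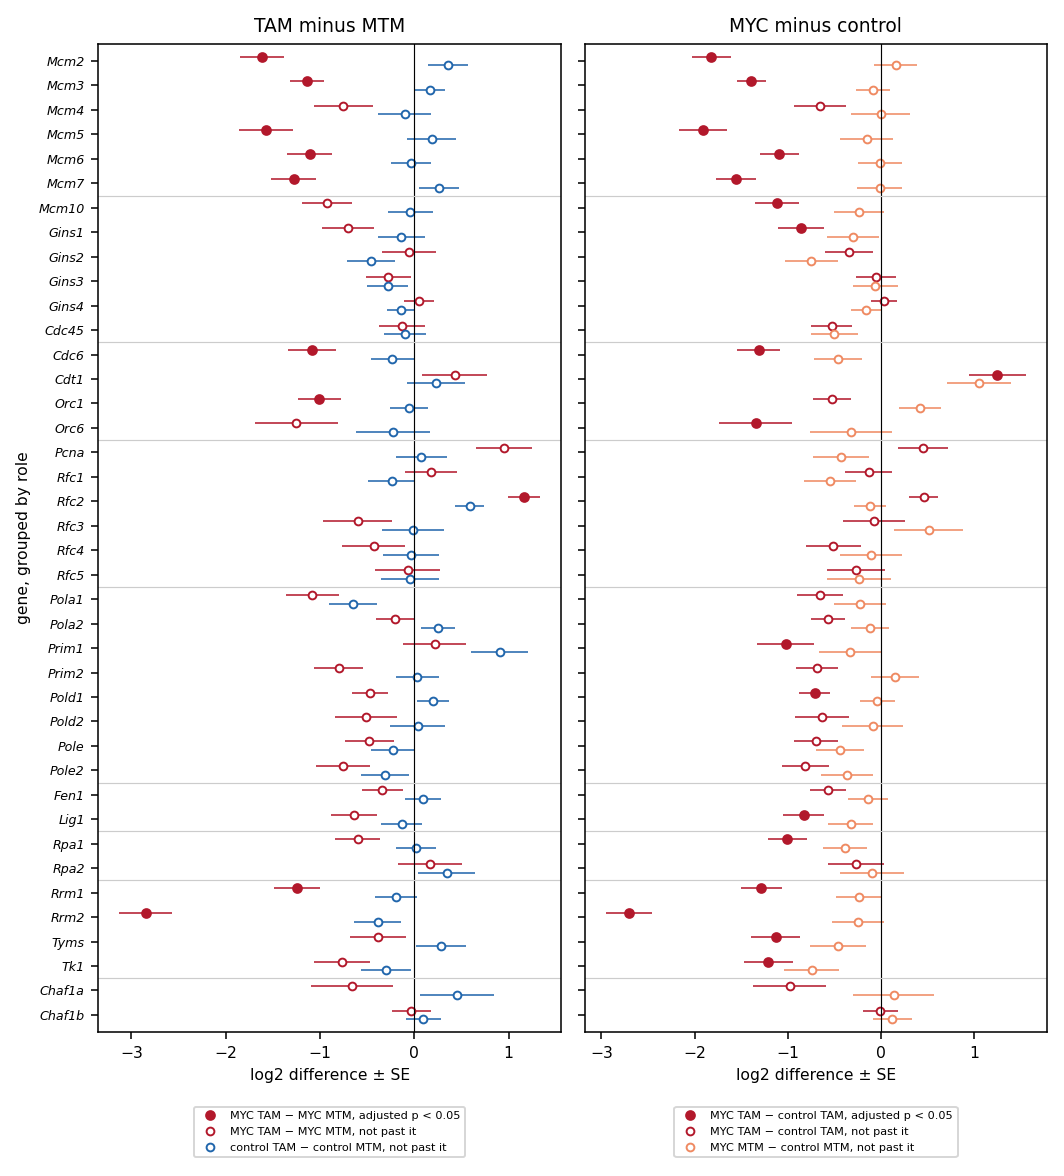
Log2 difference with its SE for each of the 40 genes, grouped by role; left, TAMs minus MTMs in MYC and in control mice, and right, MYC minus control mice, for either cell type. Filled points passed the adjusted p of 0.05, and there are 10 in the left panel and 18 in the right, with none in control mice or between MTMs.

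Of the 8 polymerase and primase genes, 0 differed between MYC TAMs and MYC MTMs. Estimates were below 0 for 7 of them, with a median of -0.50. Pola1, the catalytic subunit of the polymerase that starts each strand, came closest. It was at 1.44, 1.69 and 1.96 in MYC TAMs, 2.70 and 2.84 in MYC MTMs, 2.04, 2.65 and 2.36 in control TAMs and 2.83, 3.46 and 2.71 in control MTMs. TAMs were below MTMs in both genotypes without overlap, with differences of -1.08 (adjusted p = 0.0668, and 0.0398 with the mouse as a random block) and -0.65 (adjusted p = 0.309).

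Prim1, the primase subunit that makes the RNA primer, was at 2.85, 2.93 and 2.47 in MYC TAMs, 2.09 and 2.99 in MYC MTMs, 4.06, 3.29 and 3.98 in control TAMs and 3.20, 2.53 and 2.88 in control MTMs. Control TAMs were above every other library. Prim1 fell by 1.02 in MYC TAMs against control TAMs (SE 0.30, adjusted p = 0.0477), which 11 of 19 alternatives did not keep. Pold1, the catalytic subunit of the lagging strand polymerase, fell by 0.71 (SE 0.17, adjusted p = 0.0190), and 5 of 19 alternatives did not keep the call. Pola2, Prim2, Pold2, Pole and Pole2 had differences of -0.57 to -0.81 from control TAMs that did not pass.

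Okazaki fragments are finished by Fen1, the flap nuclease, and Lig1, the ligase that seals the nick. Lig1 was at 2.91, 2.77 and 2.25 in MYC TAMs, 3.17 and 3.39 in MYC MTMs, 3.24, 3.74 and 3.44 in control TAMs and 3.49, 3.86 and 3.47 in control MTMs, and it fell by 0.83 against control TAMs (SE 0.22, adjusted p = 0.0291, above the threshold in 8 of 19 alternatives). Fen1 was at 1.74, 1.72 and 1.22 in MYC TAMs, 1.85 and 1.94 in MYC MTMs, 2.10, 2.28 and 2.00 in control TAMs and 1.99, 2.15 and 1.98 in control MTMs. Both genes were lowest in MYC TAMs, and the difference of Fen1 from control TAMs was -0.57 (adjusted p = 0.0764). Fen1 shares 78.8% of its exon bases with the antisense gene Gm10143, which was at 0.15 to 0.43 in all libraries.

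Replication protein A coats the single strands that the helicase exposes. Rpa1, its large subunit, was at 3.77, 4.40 and 3.72 in MYC TAMs, 4.60 and 4.53 in MYC MTMs, 4.71, 5.14 and 5.06 in control TAMs and 4.90, 4.75 and 5.20 in control MTMs. MYC TAMs were below every other library, and the difference from control TAMs was -1.004 ± 0.212 (adjusted p = 0.0113, and 0.0547 in a fit of these groups alone). Rpa2 was at 3.96, 3.65 and 2.93 in MYC TAMs, 3.38 and 3.31 in MYC MTMs, 3.42, 4.22 and 3.71 in control TAMs and 3.17, 3.86 and 3.29 in control MTMs, and all groups overlapped with MYC TAMs.

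The nucleotide supply genes held the largest difference of the 40. Rrm2, the small subunit of ribonucleotide reductase and the one whose amount follows S phase, was at 1.98, 2.06 and 1.43 in MYC TAMs, with 4.55 and 4.79 in MYC MTMs. In controls it was at 4.10, 4.90 and 4.58 in TAMs and 4.66, 5.17 and 4.91 in MTMs. The highest MYC TAM library was over 2 log2 units below the lowest of the other 8. Rrm2 fell by 2.85 in MYC TAMs against MYC MTMs (SE 0.28, adjusted p = 0.000875), which is 7.21-fold on this scale, and by 2.71 against control TAMs (SE 0.25, adjusted p = 0.000142), or 6.52-fold. Both calls held under every alternative, with adjusted p of at most 0.0443 and 0.00680.

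Rrm1, the large subunit, was at 4.29, 4.81 and 4.81 in MYC TAMs, with 5.89 and 5.86 in MYC MTMs, beside 5.60, 6.15 and 6.01 in control TAMs and 5.88, 6.48 and 5.99 in control MTMs. It was 1.24 lower than in MYC MTMs (SE 0.24, adjusted p = 0.0220, lost without MYC TAM mouse 2, without either MYC MTM library and in a fit of these groups alone) and 1.29 lower than in control TAMs (SE 0.22, adjusted p = 0.00409). Within the MYC mice Rrm2 was lower in TAMs by 2.57 and 2.73, and in control mice 1, 3 and 5 by 0.56, 0.27 and 0.33. Beside these, the epithelial markers averaged 3.55 in TAMs and 3.64 in MTMs of MYC mouse 2, and 2.49 and 3.52 in those of MYC mouse 4, and the T and NK markers 0.20 and 0.32 in mouse 2, and 0.46 and 0.96 in mouse 4. Their part in the difference was not tested.

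The thymidylate genes passed in 1 comparison. Tyms, thymidylate synthase, was at 2.53, 2.20 and 1.72 in MYC TAMs, 2.38 and 2.69 in MYC MTMs, 3.09, 3.56 and 3.18 in control TAMs and 2.63, 3.39 and 2.96 in control MTMs. It fell by 1.13 against control TAMs (SE 0.27, adjusted p = 0.0185, lost in 5 of 19 alternatives), and the MYC groups overlapped. Tk1, the S phase thymidine kinase, was at 0.81, 0.72 and 0.70 in MYC TAMs, 1.58 and 1.44 in MYC MTMs, 2.29, 1.86 and 1.71 in control TAMs and 2.19, 2.78 and 1.78 in control MTMs. The MYC MTM libraries lay between MYC TAMs and the controls. Its fall against control TAMs was 1.21 (SE 0.26, adjusted p = 0.0130, lost in 2 of 19 alternatives), and its difference from MYC MTMs was -0.76 (adjusted p = 0.216). Tyms has a processed pseudogene, Tyms-ps.

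Chaf1a and Chaf1b, subunits of the factor that puts histones onto new DNA, did not pass in any comparison. Chaf1a was at 0.39, 1.82 and 0.77 in MYC TAMs, 1.63 and 1.68 in MYC MTMs, 1.61, 2.23 and 2.08 in control TAMs and 0.97, 1.55 and 2.05 in control MTMs, and 52.5% of its exon bases are shared with Ubxn6 on the opposite strand. Chaf1b was at 3.82, 3.53 and 3.37 in MYC TAMs, 3.51 and 3.71 in MYC MTMs, 3.56, 3.58 and 3.61 in control TAMs and 3.28, 3.85 and 3.33 in control MTMs. All 4 groups of Chaf1b overlapped, and its difference from control TAMs was -0.01 (95% interval -0.43 to 0.41).

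Whether the TAM minus MTM difference itself differed between MYC and control mice was tested in the same model. It did for 3 of the 40 genes, Rrm2 by -2.46 ± 0.37 (adjusted p = 0.0171), Mcm2 by -1.98 ± 0.31 (adjusted p = 0.0206) and Mcm3 by -1.31 ± 0.24 (adjusted p = 0.0350), where 1.24% of all genes passed. Mcm7 and Mcm5 followed with -1.54 (adjusted p = 0.0621) and -1.75 (adjusted p = 0.0716). None of these 3 calls held under all alternatives. With the mouse as a fixed block there was 1 call, since Mcm2 and Mcm3 had adjusted p of 0.0541 and 0.0860, and with the mouse as a random block there were 5, with Mcm7 and Mcm5 added. There were 0 calls when MYC MTM mouse 2 or 4, control TAM mouse 5 or control MTM mouse 5 was left out. Leaving out control MTM mouse 1 gave 1 call, and leaving out mouse 3 of that group gave 5.

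Other lists of genes around the cell cycle were read beside the 40. Of 24 mitosis genes 21 fell in MYC TAMs against MYC MTMs and 21 against control TAMs (87.5% in each, where 3.82% and 12.0% of all genes were lower), with median differences of -1.98 and -1.84. Averaged over these 24 genes, the level was 1.54, 1.65 and 1.69 in MYC TAMs, 3.43 and 3.56 in MYC MTMs, 2.96, 3.70 and 3.45 in control TAMs and 3.61, 4.24 and 3.65 in control MTMs. Plk1, a kinase of mitotic entry, fell by 2.65 against MYC MTMs (adjusted p = 0.00122), and Ccnb2, a mitotic cyclin, by 3.12 (adjusted p = 0.00131). Mki67, the common marker of cycling cells, was at 0.39, 0.57 and 0.47 in MYC TAMs, 1.82 and 1.95 in MYC MTMs, 1.00, 1.65 and 1.54 in control TAMs and 1.87, 2.24 and 1.93 in control MTMs, and fell by 1.41 against MYC MTMs (adjusted p = 0.00916).

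**Figure D4:**
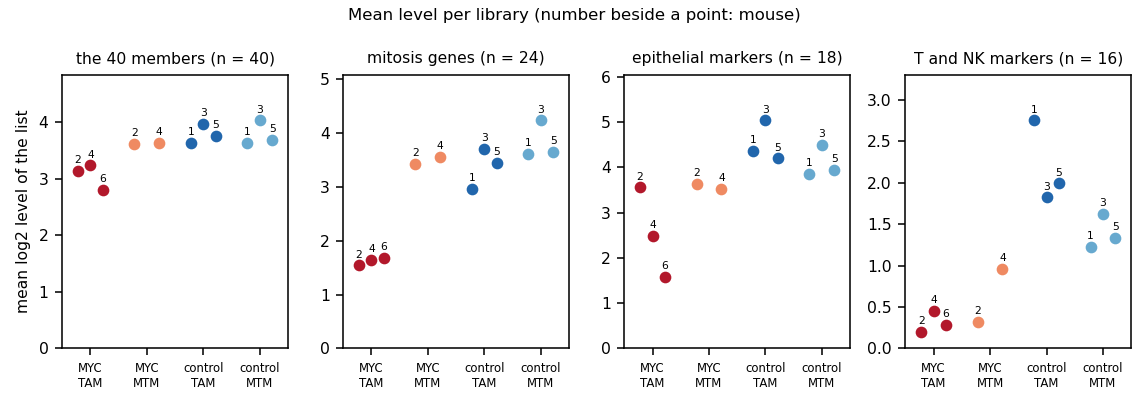
Mean log2 level per library (points, numbered by mouse) of the 40 genes, the 24 mitosis genes, 18 epithelial markers and 16 T and NK cell markers, by group. The 40 genes and the mitosis genes are lowest in all 3 MYC TAM libraries, and the epithelial mean is 3.55, 2.49 and 1.58 there, against 3.64 and 3.52 in MYC MTMs.

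Of 33 further replisome and origin genes, 0 passed between MYC TAMs and MYC MTMs, and 5 fell against control TAMs (15.2%, beside 12.0% of all genes lower there). The share of the list is thus near that of all genes. Dna2, a flap nuclease and helicase, fell by 1.57 (adjusted p = 0.00277) and Chtf18, of an alternative clamp loader, by 0.79 (adjusted p = 0.00952). Of 16 genes of replication-coupled chromatin the counts were 0 and 6 (37.5%), led by Hells, a chromatin remodeller, with a fall of 1.57 (adjusted p = 0.00809). Unadjusted limma p values under 0.05 in the comparison with MYC MTMs were found for 6 of the first list and 5 of the second. Of all 17475 genes 2928 had them, so the share of the first list is near that of all genes.

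Around deoxynucleotides, 2 of 16 further genes fell against MYC MTMs (12.5%, beside 3.82% of all genes). Dck, deoxycytidine kinase of the salvage route, was at 2.10, 2.11 and 3.12 in MYC TAMs, against 4.21 and 4.33 in MYC MTMs, a fall of 1.83 (adjusted p = 0.0223), and Nme1, a nucleoside diphosphate kinase, fell by 0.71 (adjusted p = 0.0379). Against control TAMs 6 of the 16 fell and 2 rose (12.0% and 3.89% of all genes), one of them Tk2, the mitochondrial thymidine kinase, by 1.09 (adjusted p = 0.00472). Rrm2b, the reductase subunit used outside S phase, differed by 0.05 between MYC TAMs and MYC MTMs (95% interval -0.46 to 0.56), and Samhd1, which degrades deoxynucleotides, by -0.94 (adjusted p = 0.0536).

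Of 19 genes that build purine and pyrimidine rings, 3 fell against MYC MTMs (15.8%, beside 3.82% of all genes). Ctps, CTP synthase, was at 2.67, 2.66 and 2.69 in MYC TAMs, 4.18 and 4.25 in MYC MTMs, 3.96, 4.26 and 4.36 in control TAMs and 3.65, 4.14 and 3.91 in control MTMs. It fell by 1.54 against MYC MTMs (adjusted p = 0.00200) and its TAM minus MTM difference differed between the genotypes by -1.83 (adjusted p = 0.0121). The others were Impdh1, of guanine nucleotide synthesis, and Cad, which starts the pyrimidine ring, with falls of 1.53 and 0.84. Impdh1 was at 3.44, 4.05 and 3.23 in control TAMs and 4.94, 4.04 and 4.71 in control MTMs, a difference of -0.99 (adjusted p = 0.128). In control mice 2 of the 19 were lower in TAMs than in MTMs (1.63% of all genes), Ctps2 by 0.84 and Adssl1 by 1.31 (adjusted p = 0.0113 and 0.0495). Against control TAMs 6 of the 19 fell and 1 rose (12.0% and 3.89% of all genes).

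Among 32 regulators of the G1/S step, 5 fell in MYC TAMs against MYC MTMs (3.82% of all genes did). Ccna2, Ccnd1 and Ccne1, cyclins A2, D1 and E1, fell by 2.65, 1.90 and 1.72 (adjusted p = 0.00763, 0.0379 and 0.00635), with Cdk6, a partner of D cyclins, and E2f2, which was named after its values were seen, as the others. Against control TAMs 12 fell and 2 rose (12.0% and 3.89% of all genes). The rise was largest for Cdkn1a, the cyclin-dependent kinase inhibitor p21, at 6.62, 6.00 and 5.34 in MYC TAMs, 5.52 and 5.37 in MYC MTMs, 2.68, 3.79 and 3.76 in control TAMs and 4.04, 4.35 and 4.59 in control MTMs. All 5 MYC libraries were above all 6 control libraries, and the difference between TAMs was 2.58 ± 0.37 (adjusted p = 0.00157).

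The E2F genes themselves were not uniform. E2f1 was at 2.10, 2.73 and 3.46 in MYC TAMs, 3.06 and 3.06 in MYC MTMs, 2.51, 3.10 and 2.67 in control TAMs and 3.33, 3.19 and 3.32 in control MTMs, with a difference of -0.30 between MYC TAMs and MYC MTMs (95% interval -1.06 to 0.47). E2f7 and E2f8, the repressor members, fell by 0.34 and 1.03 in MYC TAMs against control TAMs (adjusted p = 0.0430 and 0.0237).

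**Figure D5:**
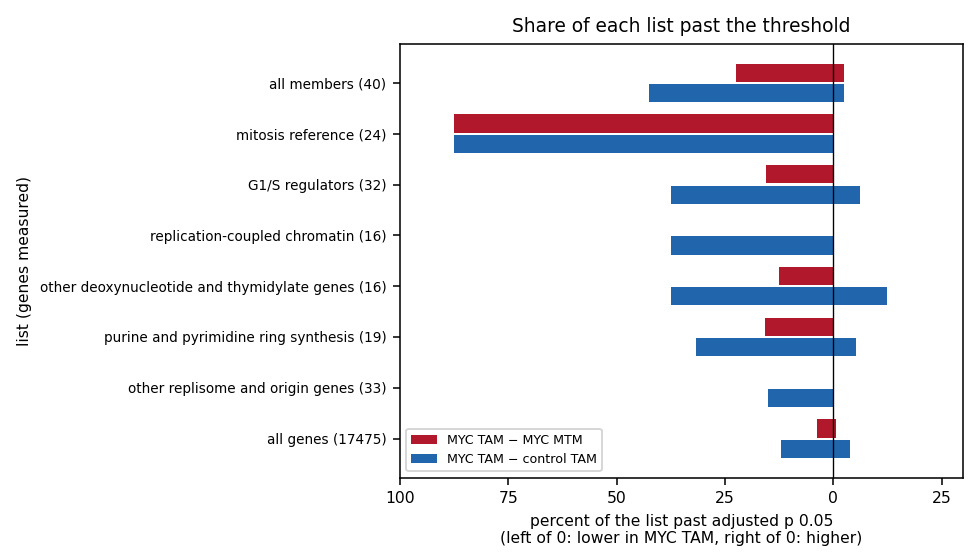
Percent of each gene list past the adjusted p of 0.05, lower in MYC TAMs to the left of 0 and higher to the right, against MYC MTMs (upper bar) and against control TAMs (lower bar). The mitosis genes reach 87.5% lower in both, the 40 replication genes lie between them and all genes, and 33 further replisome genes show no bar against MYC MTMs.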

How the data were processed

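The authors deposited 1 table of log2 expression values for 17475 genes. Per the submitters' processing notes HISAT2, DESeq2, mm10 and GRCm38.p5 were used, with no role stated, and per the labels' protocols libraries came from 500 ng of RNA with RIN 3.3 to 9.6, with poly-A capture, TruSeq Stranded chemistry and 8 cycles of PCR. The formula is not given in the sources used here. From the values it behaved as log2 of x plus 1.00, as all of 10138 low values were whole read steps within 0.05. Read numbers were estimated from these steps and GENCODE M21 exon lengths, and their precision covers counting error only.

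Group means were fitted with limma 3.58.1 (R 4.3.3) to all 11 libraries, with a variance trend, two-sided tests and Benjamini-Hochberg adjustment over all genes. A number in the labels is a mouse, and TAMs and MTMs of a mouse deviated together at correlations of 0.0379 to 0.211. The main fit had no term for the mouse, so TAMs and MTMs of a mouse were treated as unpaired. Its p-values measure the spread between libraries, and so between mice, within groups, not the spread of within-mouse differences. Python 3.11.15 (numpy 2.4.6, pandas 2.3.3, matplotlib 3.10.9) served for promoters and figures.

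The 40 genes, the other lists (taken by function, 16 of 259 genes not measured or duplicated) and the naming rule were chosen with earlier results of these data known. Named in full were, per role, the genes with the smallest and largest p between MYC TAMs and MYC MTMs, and the 4 with the smallest adjusted p elsewhere. Genes of other lists were named by smallest adjusted p, at most 4 per list and comparison, beside E2f1, E2f7, E2f8, Cdkn1a, Rrm2b, Samhd1 and Mki67. Alternatives were another pseudocount, a filter, other normalisations, no trend, a mouse block, a fit of the groups compared alone and each library left out; leaving out MYC TAM mice 4 and 6 together was added after seeing the data. A count test was not run, since the values are not counts.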

Additional observations from a re-analysis of the deposited data

Results flagged for a closer look

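For 3 genes the TAM minus MTM difference was not the same in MYC and in control mice by a test of that difference itself (limma, adjusted over all genes). The MYC difference was the lower one for Rrm2, by -2.46 (95% interval -3.30 to -1.63, adjusted p = 0.0171), for Mcm2, by -1.98 (-2.68 to -1.27, adjusted p = 0.0206), and for Mcm3, by -1.31 (-1.84 to -0.77, adjusted p = 0.0350). TAMs were lower than MTMs in both MYC mice with a pair for all 3 genes. In control mice 1, 3 and 5 the difference was 0.20, 0.54 and 0.33 for Mcm2. For Mcm3 it was 0.0067, 0.29 and 0.20, and so close to 0 in mouse 1. For Rrm2 it was -0.56, -0.27 and -0.33 there.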

How the results depend on the processing

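No called difference changed its sign under any alternative that was run. Beside the 10 members called between MYC TAMs and MYC MTMs, 1 was called in a fit of these groups alone and 6 without MYC TAM mice 4 and 6, and leaving out 1 library at a time gave 1 to 11. For control TAMs against control MTMs the count of 0 became 1 under quantile normalisation, and 0 to 1 with a library left out. For MYC TAMs against control TAMs the 18 became 10 in a fit of these groups alone, and 13 to 18 with a library left out. For MYC MTMs against control MTMs it was 0 to 1 with a library left out. The 3 calls in the difference of differences became 5 where genes averaging under 1 were dropped, 1 with the mouse as a fixed replicate block, 5 with it as a random block, 1 without MYC TAM mice 4 and 6 (Pcna, higher), and 0 to 5 with a library left out. The block gave 8 (fixed) and 11 (random) for MYC TAMs against MYC MTMs, where 2.72% and 5.56% of all genes passed. For the difference of differences, 0.177% and 1.86% of all genes passed with these blocks. A fixed block could not be estimated for MYC against control. Centring libraries on their median moved the median of all genes to 0.25 (MYC TAMs minus MYC MTMs), 0.28 (MYC TAMs minus control TAMs) and 0.23 (difference of differences). There 12, 15 and 2 members were called, and 26.1%, 43.7% and 0.790% of all genes. Fits of the groups alone called 0.515% of all genes between MYC TAMs and MYC MTMs, and 8.85% between MYC TAMs and control TAMs. Causes were not tested. Depth limits Cdc6, Orc1 and Gins3 most, with as few as 6.98, 35.0 and 47.0 estimated reads.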
